A study of Homo sapiens with 24 samples.

Results

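The 9 genes described here write, guide or read methylation of lysine 9 of histone H3 (H3K9), and were examined for trimethylation of lysine 4 of histone H3 (H3K4me3) at their start sites. They were chosen by name: the H3K9 methyltransferase genes SUV39H2, SETDB1, SETDB2, EHMT1 and EHMT2, the corepressor gene TRIM28, and the heterochromatin protein 1 (HP1) genes CBX1, CBX3 and CBX5. They are 9 of the 20020 protein-coding genes in GENCODE release 44. For each gene, every H3K4me3 region of the deposited table that overlapped 2 kb on either side of a start site was listed, and the strongest of them by the authors' mean normalized count is its main region. All 9 genes had at least 1 such region, against 15084 of all protein-coding genes (75.3%).

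The cells were EndoC-βH3, a human beta cell line established from a fetal pancreas. Transgenes for hTERT and for SV40 Large T antigen immortalize it, and a CreER recombinase in the cells can cut them out. All samples carried this genotype, given in the labels as wild type, and senescence was induced in EndoC-βH3 with 4-hydroxytamoxifen (4-OHT) over 3 weeks, at 1 mM by the labels, whereas the study's methods give micromolar. H3K4me3 was profiled by MINT-ChIP, a multiplexed chromatin immunoprecipitation on MNase-digested chromatin, in 4 untreated non-senescent and 4 senescent samples of 500000 cells each. The 16 samples of H3K27me3 and H3K9me3 are not analysed here. All samples come from 1 line, so they do not sample variation between people, and the removal of the transgenes cannot be told apart from exposure to 4-OHT.

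The value analysed for each region is the authors' mean of normalized counts, with both states in 1 value. It has no SD and no n of its own, the depth per sample is unknown, and the comparison of senescent with non-senescent cells is not analysed here. The levels below therefore describe where and how strongly these genes carried H3K4me3 in this line, and no difference between genes can be set against a replicate error. Genes were compared per kb of region (density), and the undivided level of a region is given as its value, since the mean normalized count rose with region width (Spearman's rho of 0.88 across 15084 genes, which are not independent replicates and share libraries and, in part, regions). Density still rose with width, with a rho of 0.48 across the same genes, so density percentiles are not free of region width.

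H3K4me3 marks the nucleosomes beside active and poised start sites, and is placed by the SET1 and MLL complexes, which are recruited to CpG-rich DNA. H3K9 methylation does the opposite work: it marks silent repeats, imprinted genes and lineage-inappropriate genes, and HP1 proteins bind it through their chromodomains and compact the chromatin. Loss or redistribution of this system is a known feature of several kinds of senescent cell, in which heterochromatin can gather in foci.

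Start site sequences of 6 of the genes are shown first, because the position of the H3K4me3 regions relative to them is the main pattern described. Each is a RefSeq window (GRCh38.p14) of 300 bases, 250 before to 50 after a RefSeq start, printed 5′ to 3′ on the gene's strand, with CpG dinucleotides in capitals. RefSeq windows were found for 8 of the 9 genes, 11 windows in all. Those of SUV39H2 (chr10:14878616-14878915, plus strand) and EHMT1 (chr9:137618755-137619054, plus strand) have no base inside the gene's main region, and that of EHMT2 (chr6:31897649-31897948, minus strand) has 37.
SUV39H2: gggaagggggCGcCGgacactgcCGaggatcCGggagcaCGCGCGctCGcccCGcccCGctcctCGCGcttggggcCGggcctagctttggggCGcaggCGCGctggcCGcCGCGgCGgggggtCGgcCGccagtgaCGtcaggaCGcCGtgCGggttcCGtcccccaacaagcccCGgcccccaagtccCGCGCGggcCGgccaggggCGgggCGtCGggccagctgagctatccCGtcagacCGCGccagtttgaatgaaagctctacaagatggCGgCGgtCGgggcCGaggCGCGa
EHMT1: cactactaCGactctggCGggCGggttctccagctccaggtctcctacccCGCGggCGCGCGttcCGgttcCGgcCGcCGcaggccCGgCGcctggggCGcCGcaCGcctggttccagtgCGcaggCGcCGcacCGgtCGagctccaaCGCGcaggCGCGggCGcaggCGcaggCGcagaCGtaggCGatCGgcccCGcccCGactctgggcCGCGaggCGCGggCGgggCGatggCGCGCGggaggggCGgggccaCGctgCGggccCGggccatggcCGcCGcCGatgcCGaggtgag
EHMT2: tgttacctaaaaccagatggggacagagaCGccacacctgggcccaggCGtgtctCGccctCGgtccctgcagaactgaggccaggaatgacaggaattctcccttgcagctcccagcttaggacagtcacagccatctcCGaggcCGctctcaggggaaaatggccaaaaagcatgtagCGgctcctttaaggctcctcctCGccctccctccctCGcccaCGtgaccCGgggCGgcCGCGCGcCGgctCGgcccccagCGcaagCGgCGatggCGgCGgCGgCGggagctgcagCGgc
The windows of the HP1 genes CBX1 (chr17:48101137-48101436, minus strand), CBX3 (chr7:26201193-26201492, plus strand) and CBX5 (chr12:54280073-54280372, minus strand) lie wholly inside the main region of their gene. The windows of CBX1 and CBX3 belong to RefSeq starts other than the canonical one, and the canonical start of CBX3 lies outside its regions.
CBX1: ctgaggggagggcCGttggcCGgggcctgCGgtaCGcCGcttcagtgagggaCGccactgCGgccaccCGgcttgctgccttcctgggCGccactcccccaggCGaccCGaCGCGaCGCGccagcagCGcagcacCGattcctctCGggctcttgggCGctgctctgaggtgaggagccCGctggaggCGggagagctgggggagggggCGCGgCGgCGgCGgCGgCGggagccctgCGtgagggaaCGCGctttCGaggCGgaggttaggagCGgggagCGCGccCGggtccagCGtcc
CBX3: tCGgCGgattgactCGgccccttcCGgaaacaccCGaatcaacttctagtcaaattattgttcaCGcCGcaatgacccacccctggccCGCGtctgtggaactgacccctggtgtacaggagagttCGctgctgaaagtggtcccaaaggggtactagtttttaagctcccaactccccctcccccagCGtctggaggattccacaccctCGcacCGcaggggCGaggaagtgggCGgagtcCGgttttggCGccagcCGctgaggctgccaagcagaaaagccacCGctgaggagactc
CBX5: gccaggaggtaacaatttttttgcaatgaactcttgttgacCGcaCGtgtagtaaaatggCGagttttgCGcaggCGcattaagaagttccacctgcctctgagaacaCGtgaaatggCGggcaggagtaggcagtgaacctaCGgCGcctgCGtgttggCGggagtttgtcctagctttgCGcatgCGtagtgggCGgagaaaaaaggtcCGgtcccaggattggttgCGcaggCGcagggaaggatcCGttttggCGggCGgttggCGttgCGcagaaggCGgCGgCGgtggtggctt

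The EHMT1 window holds 51 CpG dinucleotides, more than 99.0% of the 35116 RefSeq windows, whose median is 14. SUV39H2 has 44 (more than 95.8%) and CBX1 has 38 (more than 90.1%). CBX5 and EHMT2 have 25 each (more than 68.0%), and CBX3 has 19 (more than 57.1%). The windows at the canonical starts of SETDB2 and SETDB1, not printed, have 29 and 22. GC content followed the same order at the top, with 79.3% in the EHMT1 window, 76.3% in that of SUV39H2 and 75.7% in that of CBX1.

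Across the 9 genes, H3K4me3 was present at ordinary promoter densities, except at EHMT2. The median density was 22.8 mean normalized counts per kb of main region, at percentile 62.8 of all genes with a region, whose median was 19.0 with quartiles of 12.3 and 26.8. In all, 8 genes were above the median density. By undivided level the 9 genes ran from percentile 40.5 at TRIM28 to 98.8 at CBX5. The median percentile of level was 72.3, and 6 genes were above the all-gene median. The density ran from 17.6 per kb at SETDB2 to 28.4 per kb at CBX3, with EHMT2 apart at 79.7 per kb. All 25 regions of the 9 genes had sequence that occurs a median of 1 time in hg38 without its alternate loci. None thus lies mostly in multi-copy sequence by this measure, which leaves out any copies in alternate loci. A median does not show smaller repeated parts, and single sampled stretches in some regions were highly repeated, up to 265423 times in an EHMT1 region.

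**Figure D1:**
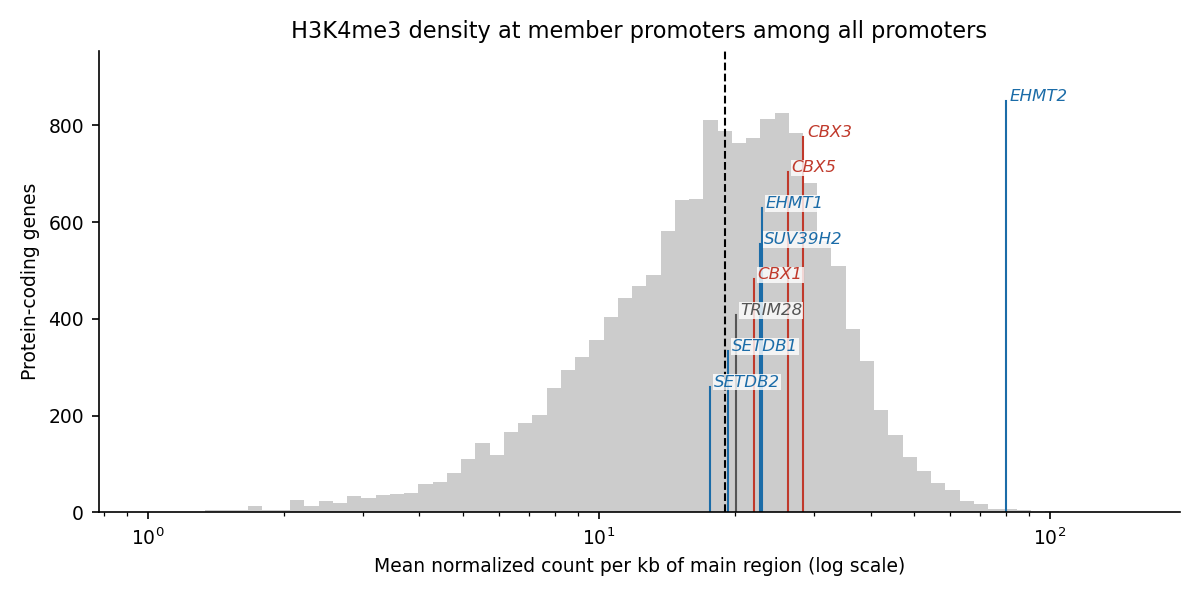
Histogram of H3K4me3 density (mean normalized count per kb of main region, log axis) over the 15084 protein-coding genes with a region at a start site. Vertical lines mark the methyltransferase genes (blue), TRIM28 (grey) and the HP1 genes (red), line heights only separate the labels, and the dashed line is the median of 19.0 per kb. The other 8 genes lie between 17.6 and 28.4 per kb, with EHMT2 at 79.7.

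In descending order of density the genes were EHMT2, CBX3, CBX5, EHMT1, SUV39H2, CBX1, TRIM28, SETDB1 and SETDB2. EHMT2 was 2.81 times as dense as CBX3. All later neighbours in the order differed by 1.01 to 1.14 times, and with no error on any value these steps cannot be ranked with confidence.

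The methyltransferase genes come first. SUV39H2 (ENSG00000152455.16, chr10:14878820-14904315, plus strand) encodes an enzyme that trimethylates H3K9 in constitutive heterochromatin. Its main region, chr10:14879132-14880795, had 37.9 mean normalized counts over 1663 bp, or 22.8 per kb, at percentile 62.8 of density. It holds another annotated SUV39H2 start and lies wholly in intron 1, from 266 to 1929 bp downstream of the canonical start. A second region, chr10:14876753-14878641, ends 225 bp upstream of the start and had 23.2 mean normalized counts, or 12.3 per kb. The start itself, and 274 of the 300 bases of the CpG-rich window printed above, fell in the 491 bp between them. The divergent long noncoding RNA gene SUV39H2-DT starts within 2 kb of both regions.

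SETDB1 (ENSG00000143379.13, chr1:150926263-150964744, plus strand) encodes the enzyme for H3K9 trimethylation that TRIM28 brings to retroelements. Its main region, chr1:150924416-150928804, spans the canonical start and exons 1 and 2, and had 84.9 mean normalized counts over 4388 bp. The density was 19.4 per kb, at percentile 51.4. It held 97.7% of the signal at SETDB1 start sites, and the remaining region, at exon 3, had 1.98 mean normalized counts. A further region of 15.5 mean normalized counts, chr1:150931604-150933105, lies in intron 3, more than 2 kb from any annotated start.

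SETDB2 (ENSG00000136169.17, chr13:49444274-49495003, plus strand), a relative of SETDB1, was the only one of the 9 genes with a single region at its start sites. That region, chr13:49442855-49447791, had 87.0 mean normalized counts over 4936 bp, or 17.6 per kb, at percentile 44.4, and covers exon 1 and the start. The gene CAB39L, an adaptor of the LKB1 kinase, starts 210 bp away on the opposite strand, and the same region is its main region. The signal cannot be divided between the genes of such a bidirectional promoter. At the 3′ end of SETDB2, a region of 19.4 mean normalized counts over exon 14 of 14 holds the start of PHF11.

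EHMT1 and EHMT2 encode GLP and G9a, the partners of 1 complex that mono- and dimethylates H3K9 in euchromatin. Their promoters looked unlike each other. EHMT1 (ENSG00000181090.21, chr9:137618992-137870016, plus strand) has 52 annotated start sites over 251025 bp and 8 regions near them, a number reached by 55 of the 15084 genes (0.365%). Its main region, chr9:137619432-137621135, lies in intron 1, from 427 to 2130 bp downstream of the canonical start, and holds another annotated EHMT1 start. It had 39.1 mean normalized counts over 1703 bp, or 23.0 per kb, at percentile 63.4. With all 8 regions summed over their summed width, EHMT1 was at percentile 30.2. The region on the other side, chr9:137617125-137618904, had 16.2 mean normalized counts, or 9.10 per kb, and holds the start of the noncoding RNA gene ARRDC1-AS1. The 528 bp between them hold the canonical start and 150 of the 300 bases of the printed window, whose other 150 bases lie in the upstream region. The main region carried 38.3% of the summed level of 102 mean normalized counts at EHMT1 start sites, the lowest share of the 9 genes. The 6 other regions lie between 45.5 and 168.5 kb into the gene, with 1.24 to 19.8 mean normalized counts.

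The EHMT1 region with the highest undivided level was not at an annotated start site. A region at chr9:137761968-137765514 had 70.8 mean normalized counts over its length, 1.81 times its main region, and a density of 20.0 per kb that is close to the promoter median. It overlaps exon 10 of 27 of the canonical transcript, and no gene of any kind has an annotated start within 2 kb of it. It is the highest of 7 EHMT1 regions away from start sites, and the lowest of them had 1.62 mean normalized counts. By comparison, SUV39H2, EHMT2, TRIM28, CBX1 and CBX3 had no region in the gene body beyond those near their start sites. These genes are much shorter, at 6659 to 31427 bp against 251025 bp for EHMT1, and so leave less gene body in which to find one.

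EHMT2 (ENSG00000204371.12, chr6:31879759-31897698, minus strand) had the densest region of the 9 genes. Its main region, chr6:31897912-31898957, had 83.3 mean normalized counts within 1045 bp, or 79.7 per kb, at percentile 99.9. Only 17 of the 15084 genes (0.113%) were at or above this density, and it was 4.20 times the all-gene median. The region was narrow, at percentile 16.7 of width, and its undivided level was at percentile 72.3. The region is upstream only, from -1259 to -214 bp relative to the canonical start, and holds no annotated start of any gene. It lies within the span of C2, which encodes a complement component and shares this region as its main region. The canonical start of C2 is 30019 bp away, and C2 was assigned the region through an alternative start within 2 kb of it. Downstream of the canonical EHMT2 start, chr6:31896166-31896927, which holds another annotated EHMT2 start, had 4.82 mean normalized counts over exons 2 to 4, or 6.33 per kb. The gap between the upstream and downstream regions was 985 bp. The position of EHMT2 among all genes thus rests on the division by width and on the choice of region. With the region nearest to a start site in place of the strongest, its density moved from percentile 99.9 to 8.36.

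TRIM28 (ENSG00000130726.12, chr19:58544064-58550722, plus strand) encodes KAP1, the corepressor through which KRAB zinc finger proteins recruit SETDB1 and HP1. Its strongest region, chr19:58545140-58547018 over exons 2 and 3, was 1076 to 2954 bp downstream of the canonical start and holds another annotated TRIM28 start. It had 37.8 mean normalized counts, or 20.1 per kb. A smaller region, chr19:58543579-58544366, covers the canonical start with 20.8 mean normalized counts and the higher density of 26.5 per kb. The main region was poor in CpG, with an observed to expected ratio of 0.256 at percentile 5.50 of all main regions, against 0.764 in the region at the canonical start.

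Of the HP1 genes, CBX5 and CBX3 had the widest main regions of the 9 genes. CBX5 (ENSG00000094916.16, chr12:54230942-54280133, minus strand) encodes HP1α. Its main region, chr12:54277511-54287248, had 255.0 mean normalized counts over 9737 bp, a width reached by 89 of the 15084 genes (0.590%). The density was 26.2 per kb, at percentile 73.2, and the undivided level was at percentile 98.8. Where most of a region had to lie within 2 kb of a start, a region this wide could not qualify. CBX5 was then at percentile 45.4, from its second region. The main region also covers the start of HNRNPA1, an RNA-binding protein gene that begins 604 bp away on the opposite strand. Of the main region, 73.2% lies upstream of CBX5. A second CBX5 region at internal start sites around exon 2, chr12:54257507-54260843, had 58.8 mean normalized counts, or 17.6 per kb, and another had 10.0 mean normalized counts.

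CBX3 (ENSG00000122565.19, chr7:26201162-26213607, plus strand) encodes HP1γ. Its main region, chr7:26195953-26201615, had 160.5 mean normalized counts over 5662 bp, or 28.4 per kb. It was at percentile 78.9 of density and 94.1 of undivided level. It holds an alternative CBX3 start and the start of HNRNPA2B1, 999 bp from the canonical CBX3 start on the opposite strand, and ends 130 bp before that canonical start. The region chr7:26202247-26205645, over exon 2, had 91.9 mean normalized counts and 0.954 times the density of the main region. Another, at exon 3, had 5.19 mean normalized counts. CBX3 and CBX5 thus each share their main region with a gene of the hnRNP A/B family.

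CBX1 (ENSG00000108468.15, chr17:48070052-48101478, minus strand) encodes HP1β. The main region, chr17:48099635-48102152, had 55.5 mean normalized counts over 2517 bp, against an all-gene median width of 2491.5 bp, and 22.1 per kb. It covers the canonical start and exon 1, carried 95.6% of the CBX1 signal, and had the highest CpG observed to expected ratio of the 9 genes, 0.809. It lies within 2 kb of a start of SNX11 but is not that gene's main region. The other CBX1 region had 2.54 mean normalized counts.

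**Figure D2:**
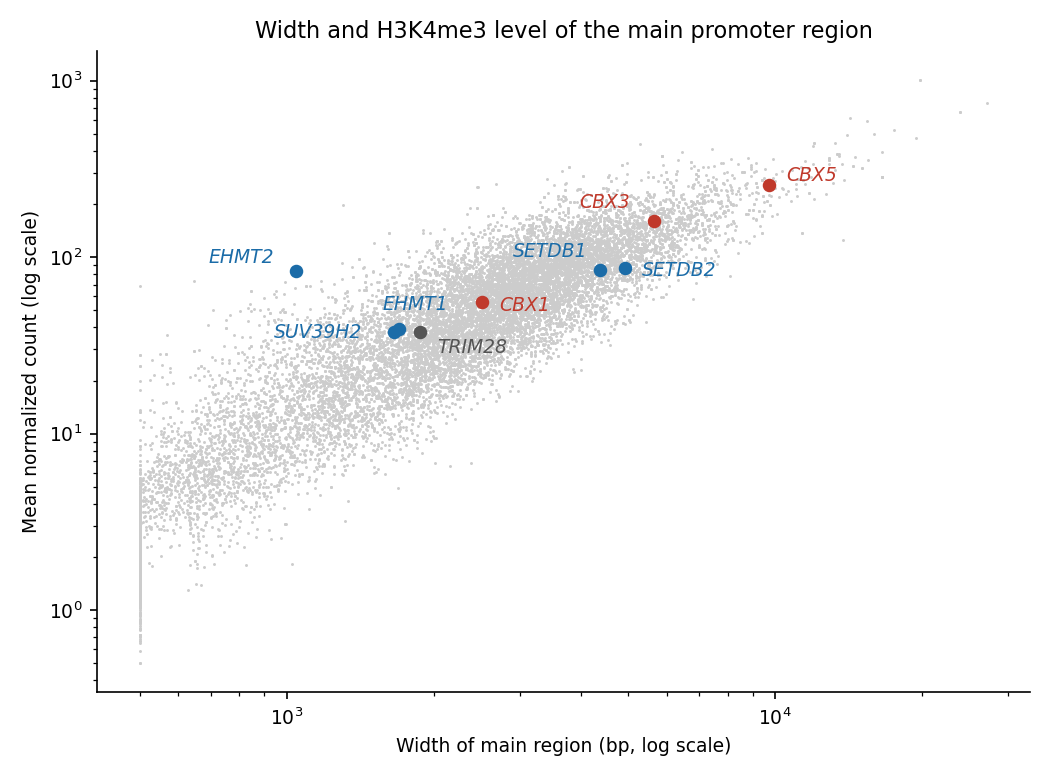
Width of the main region (bp, log axis) against its mean normalized count (log axis), with each protein-coding gene as a grey point, methyltransferase genes in blue, TRIM28 in dark grey and HP1 genes in red. CBX5 (9737 bp, 255.0) and CBX3 (5662 bp, 160.5) lie at the wide end of the cloud. EHMT2 (1045 bp, 83.3) lies at its upper edge, on the same point as C2.

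Widths differed more than densities among the genes other than EHMT2. SUV39H2, EHMT1 and TRIM28 had main regions of 1663 to 1878 bp at 20.1 to 23.0 per kb, and SETDB1 and SETDB2 of 4388 and 4936 bp at 19.4 and 17.6 per kb. Sharing of a main region with another protein-coding gene applied to 4 of the 9 genes (SETDB2, EHMT2, CBX3 and CBX5) and to 26.2% of all genes with a region. More than 1 region was found at 8 of the 9 genes and at 44.5% of all.

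The canonical start sites divided the genes. Regions covered the canonical start of CBX1, CBX5, SETDB1, SETDB2 and TRIM28. The canonical starts of SUV39H2, EHMT1, EHMT2 and CBX3 lay in a gap, with a region on each side and none across. This holds for the canonical start only, as a flanking region at each of these genes with a gap holds another annotated start of the gene. Among all genes with a region, 1884 (12.5%) had such a gap. Density was higher downstream of the gap at SUV39H2 (1.85 times the upstream value) and EHMT1 (2.52 times), about equal at CBX3 (0.954 times) and far lower at EHMT2 (0.0795 times). Across the 1884 genes the median was 1.17 times, and the downstream side was denser in 57.4%.

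**Figure D3:**
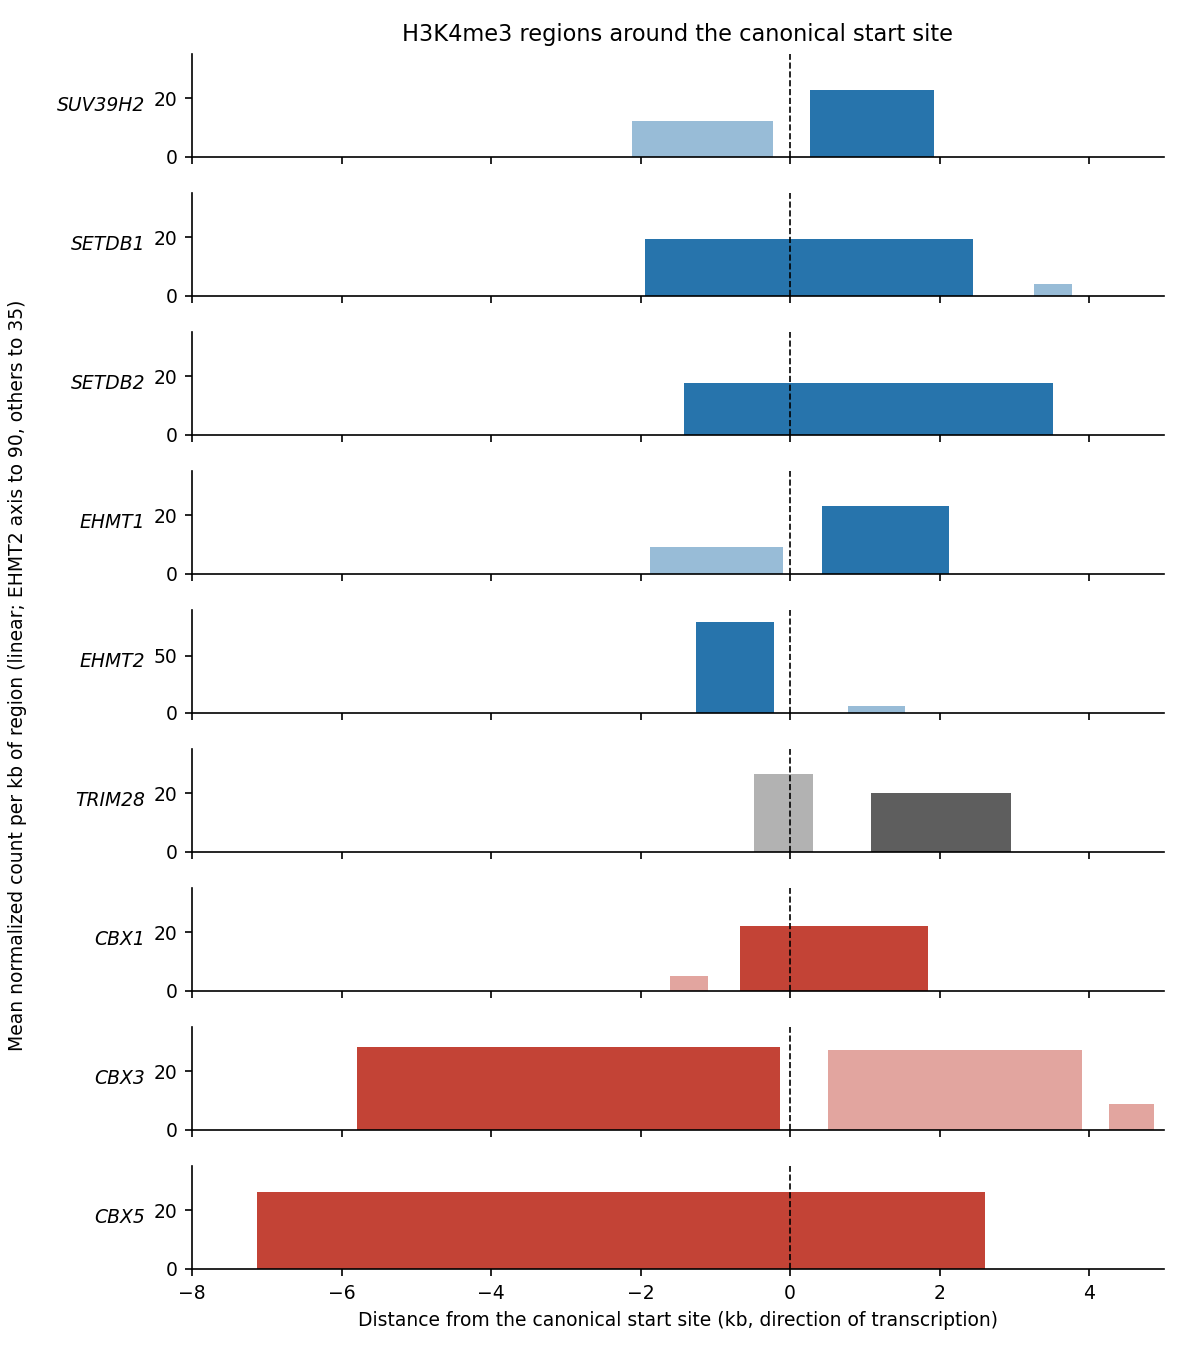
H3K4me3 regions of the 9 genes within 8 kb upstream and 5 kb downstream of the canonical start (dashed line, kb in the direction of transcription), with bar height as the mean normalized count per kb on linear axes (to 90 for EHMT2, to 35 for the others). Dark bars are main regions and pale bars are other regions near a start site. At SUV39H2, EHMT1, EHMT2 and CBX3 the start lies between bars.

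Over all genes with a RefSeq window at the canonical start, those with a gap had a median window GC of 75.3% (quartiles 71 and 79, 1396 genes), and those with a covered start 64.7% (quartiles 59 and 70, 8270 genes). With the genes split into 5 bins of about equal size by window GC, from lowest to highest, the share of genes with a gap was 1.63%, 3.46%, 6.02%, 15.2% and 39.1%. SUV39H2 (76.3%) and EHMT1 (79.3%) fall in the highest bin, where 40.9% of starts were covered. EHMT2, at 66.7%, falls in bin 3, in which gaps were uncommon. CBX1, whose window is 75.7% GC but begins from a RefSeq start downstream of the canonical one, was covered. CBX3, the remaining gene with a gap, has no RefSeq window at its canonical start, and its window at another start is 60% GC. The part of GC content, of MNase digestion or of read recovery in these gaps was not tested, and a gap between regions is not a measured absence of the mark.

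**Figure D4:**
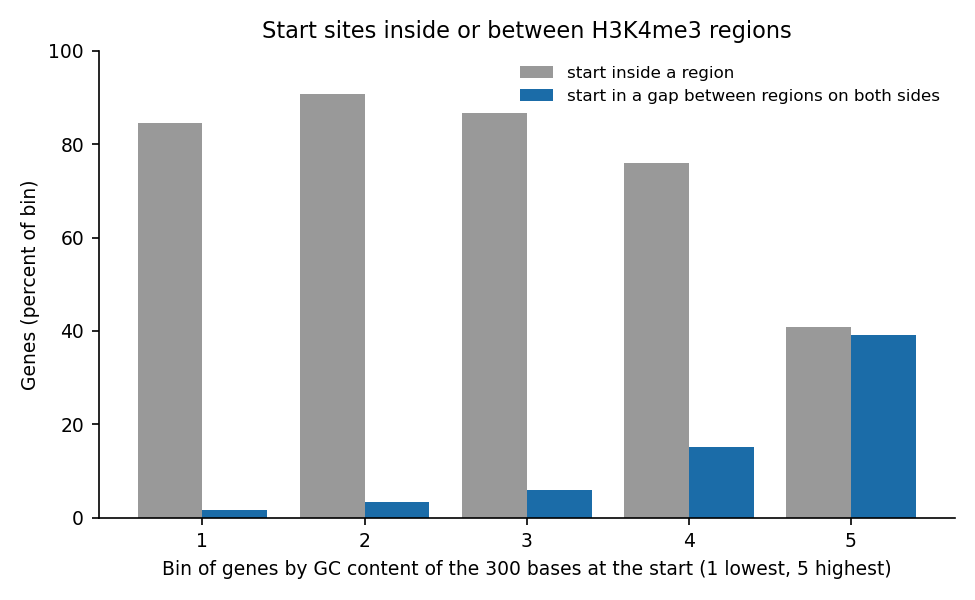
Share of genes (percent) whose canonical start lies inside an H3K4me3 region (grey) or in a gap with regions on both sides (blue), in 5 bins of genes from the lowest (1) to the highest (5) GC content of the 300-base RefSeq window there. The share in a gap is 1.63% in the lowest bin and 39.1% in the highest.

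Short matches to known promoter motifs were counted in the windows on both strands, as a description. The GC box GGGCGG of SP and KLF factors was in 6 of the 11 member windows and in 45.0% of all windows, and the EHMT1 window holds 4 copies. The CCAAT box (CCAAT) of NF-Y was in 4, at SETDB2 and CBX5, against 34.6% of all windows, and the E-box CACGTG in 4, at SETDB1, EHMT2 and CBX5, against 7.26%. Overlapping windows of the same gene share some of these matches. The ETS motif CCGGAAG was in those of SETDB1 and CBX3 (10.3% of all). Single windows held the NRF1 motif GCGCATGC (CBX5, at -70 from the RefSeq start, 3.05% of all), the YY1 motif AAGATGGC (SUV39H2, at 21 on the same count, 2.89%) and the CREB motif TGACGTCA (SUV39H2, at -116, 1.85%). The E2F motif GGCGGGAA, which can overlap the GC box, and the TATA box TATAAA had no match in the 11 windows, against 3.16% and 11.5% of all. These exact letters are not in these windows, which says nothing of the factors. Other forms of the motifs were not searched.

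Genes that work with or against the 9 were also marked. All 25 partner and opposing genes of H3K9 methylation in 5 lists had a region, and 17 were above the median density, with a median of 21.9 per kb. The 7 H3K9 demethylase genes had a median of 25.9 per kb and 6 above the median, from KDM4D at 18.9 to KDM4B at 35.6. The HUSH silencing complex and partners of SETDB1 had 3 of 5 above, from MORC2, an ATPase, at 12.0 to MPHOSPH8, the HUSH subunit that reads H3K9 methylation, at 49.8. The zinc finger partners of EHMT1 and EHMT2, WIZ at 18.8 and ZNF644 at 10.8, were both below. Of 9 genes for HP1 partners and heterochromatin maintenance, 6 were above, from the chromatin remodeller gene ATRX at 11.3 to POGZ, an HP1-binding zinc finger protein gene, at 56.3. The TRIM28 relatives TRIM24 and TRIM33 had 23.8 and 21.9 per kb.

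For scale, 5 of 9 genes for H3K4 methyltransferases and demethylases were above the median, with a median of 32.9 per kb, from KDM5C at 11.1 to SETD1B at 55.8. Of 13 Polycomb genes 5 were above, with a median of 16.3 per kb, from EZH2 at 12.6 to RNF2 at 33.7. No test was made of any of these differences.

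**Figure D5:**
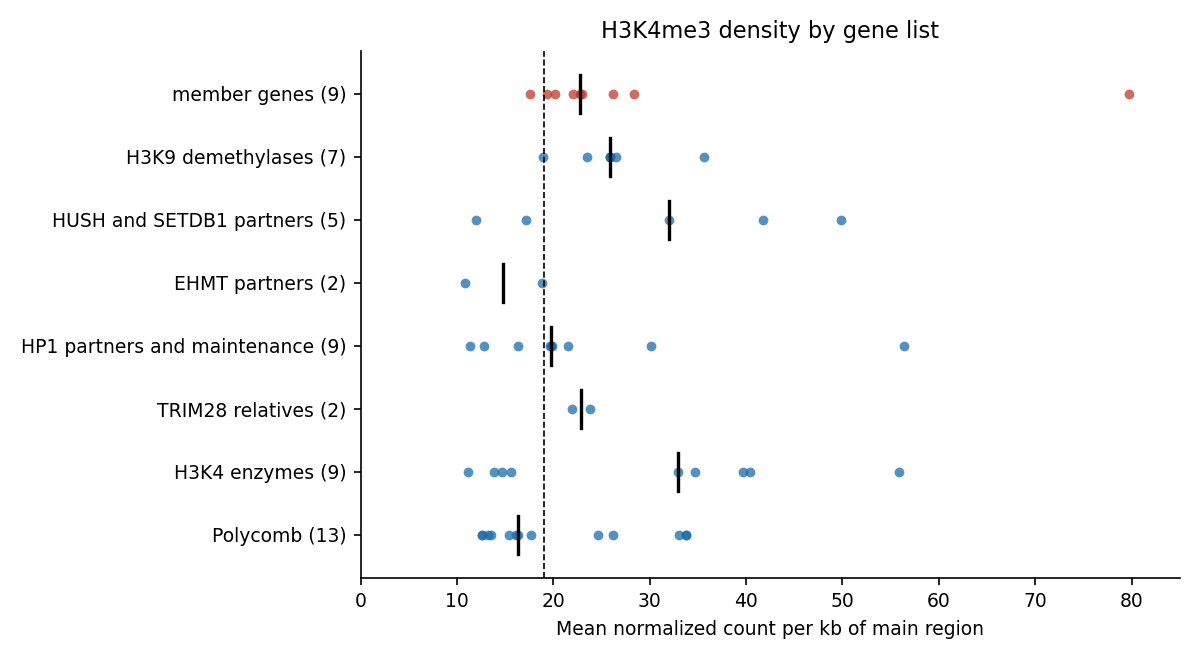
H3K4me3 density (mean normalized count per kb of main region, linear axis) of the 9 genes (red) and of 7 lists of related genes (blue), 1 point a gene, with list sizes in brackets. Black bars are list medians and the dashed line is the all-gene median of 19.0 per kb. The 9 genes overlap with each of the lists, and EHMT2 is the densest point.

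Of 10 beta cell markers 9 had a region, against 75.3% of all protein-coding genes. The markers with a region had a median density of 22.5 per kb (percentile 62.1), with 5 above the all-gene median. Densities ran from IAPP at 7.56 to NEUROD1 at 28.8 per kb, and the median percentile was near the 62.8 of the 9 H3K9 genes. By undivided level the median percentile of the markers with a region was 95.5, with a range of 10.0 to 99.97. MAFA had none, and INS (14.0), ABCC8 (11.1) and G6PC2 (8.81) were below the all-gene median with IAPP. Of 6 markers of other pancreatic cells 5 had a region, with a median density of 6.99 per kb and none above the all-gene median. Their densities ran from PRSS1 at 2.24 to SST at 11.0 per kb. SST was denser than the beta cell markers G6PC2 and IAPP, so the marker lists overlap in density. PTPRC and ALB had no region, and APOB had 17.6 per kb.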

How the data were processed

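MINT-ChIP for H3K4me3 was made by the authors from 8 samples, 4 in each state. The authors used Bowtie2 to align to hg38, then samtools, with HOMER for peaks and DESeq2 to compare states. Versions, the merging of peaks across samples and the counting of reads are not given in the sources used here. The deposited table gives 97545 regions, and its signal is the authors' mean normalized count of each region, taken here to be over the 8 samples of both states. The other columns hold the authors' own comparison of the states (a fold change, its error, a test statistic and p-values), and were not used, so no state was compared and no test was run. Depth per sample is unknown. The mean normalized counts sum to 1470680.

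GENCODE 44 supplied the start sites of all transcripts of 20020 protein-coding genes. Each gene received every region that overlapped 2 kb on either side of any of them. Density is the mean normalized count divided by region width in kb, and a percentile is the share of the 15084 genes with a region that lie lower, with ties counted in part. Canonical transcripts are those that GENCODE tags so. Region coordinates are printed as in the table, which does not state whether starts count from 0 or 1. GC, CpG and copy number (60 stretches of 24 bases a region, over 194 hg38 sequences, alternate loci left out) came from hg38. Promoter windows came from RefSeq (GRCh38.p14).

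All 9 genes were named, with the genes sharing their main regions and the densest and least dense gene of each list. INS, ABCC8, G6PC2 and genes with no region were named outside that rule, after their values were seen, as were the gene body regions, the neighbouring starts and the start site gaps. The members and lists were chosen with earlier results of these data known. Some list members are not reported here by name. The assignment of regions to genes was tested on simulated data. Alternatives in window, start sites, minimum signal, overlap, choice of region and scaling (9 in all) are given at the end. Computation was in Python 3.11.15 (numpy 2.4.6, pandas 2.3.3), with plots by matplotlib 3.10.9.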

Additional observations from a re-analysis of the deposited data

How the results depend on the processing

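The median density percentile of the 9 genes, 62.8, moved to 56.8 with only regions of at least 10 mean normalized counts, to 61.2 with most of each region required inside the window, to 58.3 with all regions of a gene summed, to 72.3 without division by width and to 64.9 with each distinct region counted once. It stayed between 62.1 and 62.9 with windows of 1 kb or 500 bp, with protein-coding transcripts only or with the region nearest to a start. All 9 genes had a region under every alternative in which this was counted, and 6 to 8 were above the median under all 9 alternatives. CBX1 and CBX3 stayed above the median under all 9. The other genes fell on both sides of the median. EHMT2 ran from percentile 8.36 to 99.9, CBX5 from 45.4 to 98.8, EHMT1 from 30.2 to 65.6 and SETDB2 from 35.5 to 74.2. SETDB1 ran from 43.6 to 73.1, TRIM28 from 40.5 to 68.0 and SUV39H2 from 40.6 to 65.0. Samples could not be left out in turn, since the table used here gives 1 pooled value a region. No paired analysis was possible because no value per sample was used. The lack of a replicate error limits every difference between genes.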
